A study of Mus musculus with 8 samples.

Results

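Potassium channel genes were examined in RNA from the brains of control mice and of mice carrying a conditional knockout (cKO) of Akap11. The set comprised the protein-coding genes whose symbol starts with Kcn, without Kcnj10, that had 10 or more reads in at least 4 of the 8 libraries. Of 93 such genes 80 met that threshold, out of 57186 genes listed and 16766 tested. They were 37 voltage-gated pore subunits, 7 calcium-activated channels and their relatives, 12 inward rectifiers, 10 two-pore channels and 14 auxiliary subunits. There were 4 control and 4 cKO libraries, each from total RNA of a tissue labelled "brian", read here as brain, with no region named. The recombinase line and the cells it is active in, the strain, age and sex of the mice, and whether each library is a separate animal are not stated in the labels or notes used here. The p-values therefore refer only to the spread among these 8 libraries, which may be technical. The product of Akap11 is an anchoring protein that holds protein kinase A (PKA) near its substrates.

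Potassium channels let potassium leave or enter the cell, set the resting potential and end the action potential. Voltage-gated (Kv) channels are tetramers that open on depolarisation, calcium-activated channels respond to calcium that enters during spikes, inward rectifiers and two-pore (K2P) channels hold the membrane near rest, and auxiliary subunits alter the gating and trafficking of the pores. Several of these channels are PKA substrates, and the transcription factor CREB, which PKA phosphorylates, acts through the cAMP response element TGACGTCA or its shorter form TGACG. Because Akap11 anchors PKA, these letters were searched on both strands in promoters (250 bases before to 50 after a gene's start) from RefSeq on GRCm38.p6, which held 57 of the 80 genes. None of their 81 promoters contained TGACGTCA, against 1.79% of all 32851 promoters. The shorter TGACG stood in 20.99% of the channel promoters and 20.8% of all promoters. The windows of 30 bases for 4 of the genes described here are shown because these are the letters a PKA-dependent factor is known to bind. They run 5′ to 3′ on the strand of the gene. Capitals mark the TGACG, or its reverse complement, that each window was cut around. The Kcnab2 windows overlap, and each also holds the match of the other in lower case.
Kcnab2, chr4:152477696-152477725 (- strand): acgtcacttttgCGTCAaggccgcgcggcc
Kcnab2, chr4:152477707-152477736 (- strand): gaacccgccccaCGTCActtttgcgtcaag
Kcnj4, chr15:79505391-79505420 (- strand): gcgcccagctctTGACGcggggcaacgctg
Kcnj13, chr1:87394907-87394936 (- strand): accccttctccaCGTCAgttctagaggctt
Kcnh8, chr17:52602693-52602722 (+ strand): ccccgcccctgcCGTCAtcacgctcctggt
The median log2 fold change, cKO minus control, was -0.03 for the 17 genes with TGACG in a promoter and -0.04 for the other 40. A match in the letters is not a measured site.

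Reads in genes numbered 13841218 to 19991942 per library, and the least counted of the 80 channel genes, Kcnrg, held 82 reads over the 8 libraries. Just inside the read threshold lay Kcnrg, with 10 or more reads in 5 libraries, and Kcnq1 and Kcnj13 with 7 each; just outside lay Kcnn4, which reached 10 reads in 1 library (58 reads in all). The other 12 genes outside it held 0 to 27 reads over all libraries. Akap11 stood at 373, 312, 315 and 291 CPM in control replicates 1 to 4 and 220.5, 214, 237 and 240.5 CPM in cKO replicates 1 to 4, and all cKO libraries lay below all controls. Its log2 fold change (cKO minus control, as throughout) was -0.50 with an SE of 0.07 (adjusted p 0.0103, edgeR's quasi-likelihood test with Benjamini-Hochberg adjustment). That call was lost without control replicate 2 (adjusted p 0.0596), without cKO replicate 2 (0.107) and with 1 surrogate variable (0.0676). Control replicate 1 and cKO replicate 1 stood apart from the other libraries over all genes, and values without one or both of them stand beside the results below that they moved most. The cKO replicate 1 library also had the fewest reads in genes, at 63.8% of its listed reads, against 73.7% to 79.7% in the other libraries. Of its reads 10.1% were counted as ambiguous (5.14% to 6.16% in the others) and 10.4% as not aligned (3.31% to 6.66%). Neuronal markers were present in every library, and the 5 cerebellar markers were low, at a summed 23.4 to 44.1 CPM in control and 26.5 to 28.4 CPM in cKO libraries, most of it Cbln1.

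No potassium channel gene passed the test between cKO and control brain. The edgeR quasi-likelihood test, adjusted over all genes by Benjamini-Hochberg at 0.05, called 0 of the 80 members, against a background of 0.0239% of all genes (4 of 16766, with 0.0119% higher and 0.0119% lower), and DESeq2 and limma voom also called 0. The lowest adjusted edgeR p of a member was 0.889. An unadjusted edgeR p under 0.05 was reached by 5 members (6.25%), against 4.78% of all genes; 4 members reached it by DESeq2 and 3 by limma voom. By edgeR these were 3 with higher values in cKO brain (Kcnk4, Kcnk12 and Kcng4; background 2.87%) and 2 with lower values (Kcnma1 and Kcnq3; background 1.91%). The libraries of the groups did not overlap for 3 members (3.75%), against 2.96% of all genes, with cKO above in 2 (background 1.57%) and below in 1 (background 1.39%). These shares lie near the background.

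The intervals bounded the size of a change for most of these genes in bulk RNA. For 69 of the 80 members (86.2%) the 95% interval of the fold change lay within 1.5-fold in either direction, against 76.8% of all genes, and for 51 (63.8%) within 1.25-fold, against 53.5%. At 10 CPM or more on average the shares were 98.2% of 57 members against 99.3% of genes within 1.5-fold, and 86% against 83.6% within 1.25-fold. The median log2 fold change of the 80 was -0.02, with 48 negative, or 60.0% against a background of 48.8%; the median over all genes tested was 0.0034. That count varied with single libraries and with the scaling: 58 were negative with GC-content offsets, 36 without control replicate 1 (median 0.0067) and 43 without control replicate 1 and cKO replicate 1 together (median -0.0024). In that last fit 23 of the 80 had the opposite sign to the fit of all 8 libraries. In bulk RNA fewer cells of a type and less RNA per cell cannot be told apart.

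**Figure D1:**
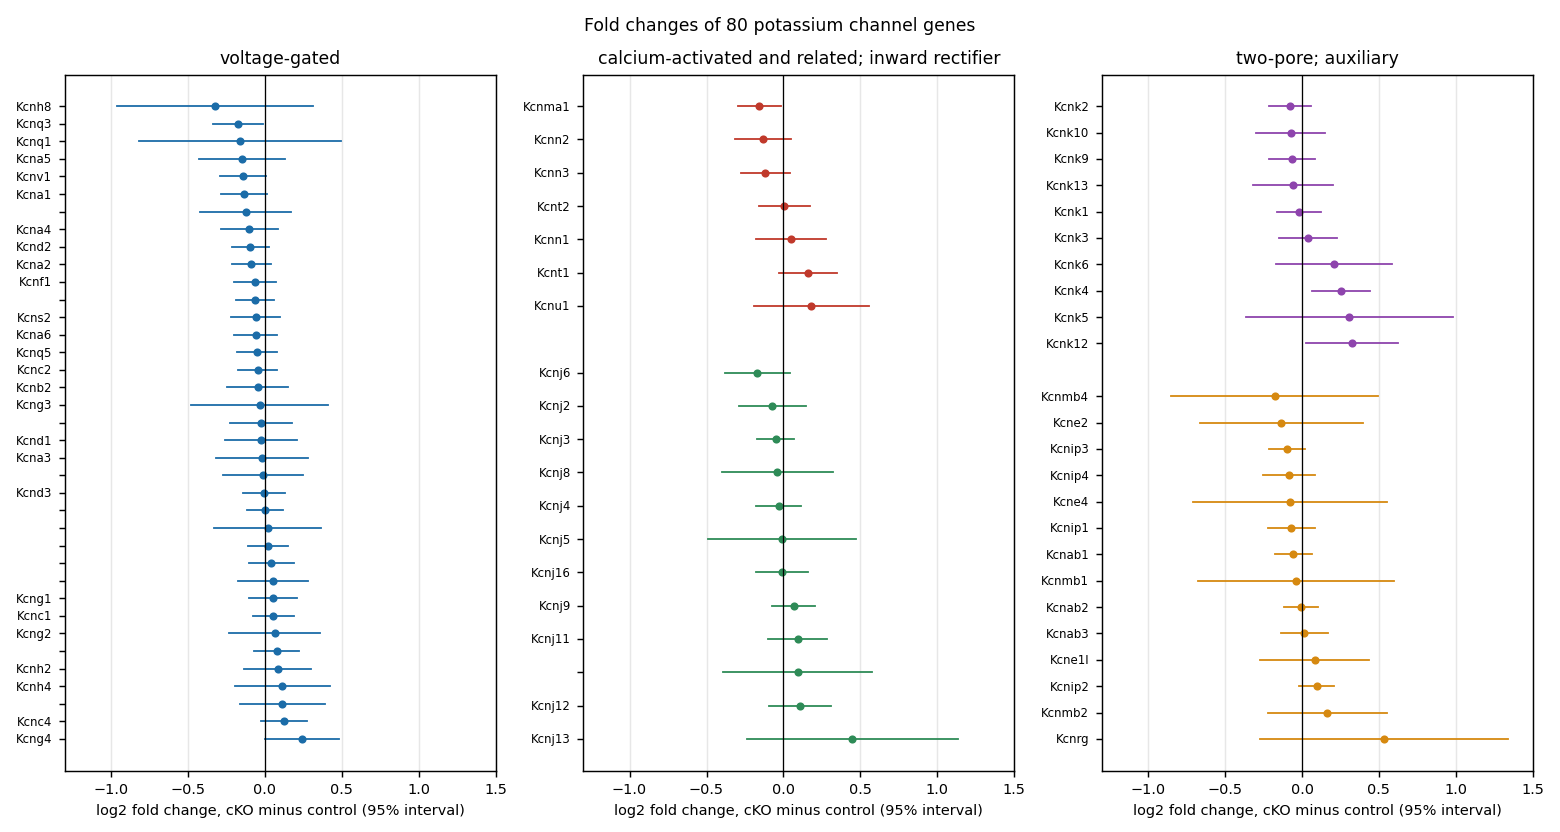
Log2 fold change (cKO minus control, x axis) of each of the 80 potassium channel genes with its 95% interval from edgeR, by family, ordered by fold change within a family, with the symbol beside the genes named in the text. The widest intervals belong to rarely counted genes such as Kcnrg, Kcnj13 and Kcnk5.

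The families kept their order by level in both groups. CPM is the read count scaled to library size, and levels of different genes are compared per kb of exon. On that scale the voltage-gated genes made up 48.7 ± 0.592% of the summed channel signal in control and 48.3 ± 0.338% in cKO brain (SD, n = 4). Auxiliary subunits held 22.2 and 22.2%, inward rectifiers 15.96 and 16.1%, two-pore channels 8.03 and 8.15%, and the calcium-activated group 5.13 and 5.19%. These shares are of the 80 members only, so the inward rectifier Kcnj10 is not in them. The most abundant gene per length was Kcnab2, a cytoplasmic Kv beta subunit, at 86.5 CPM per kb over the 8 libraries. Next came Kcnj4 (52.8), Kcnip2 (39.8), Kcnj9 (36.6) and Kcnip3 (32.1 CPM per kb), ahead of Kcnf1 (31.9) and Kcna2 (30.6 CPM per kb) of the voltage-gated family. At the other end lay Kcnq1, the cardiac and epithelial Kv7 subunit, at 0.193 CPM per kb, followed by Kcnmb1 and Kcnh8, at 0.288 and 0.303 CPM per kb. Within groups the libraries varied by a median coefficient of variation of 8.73% (control) and 9.35% (cKO) over the members.

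**Figure D2:**
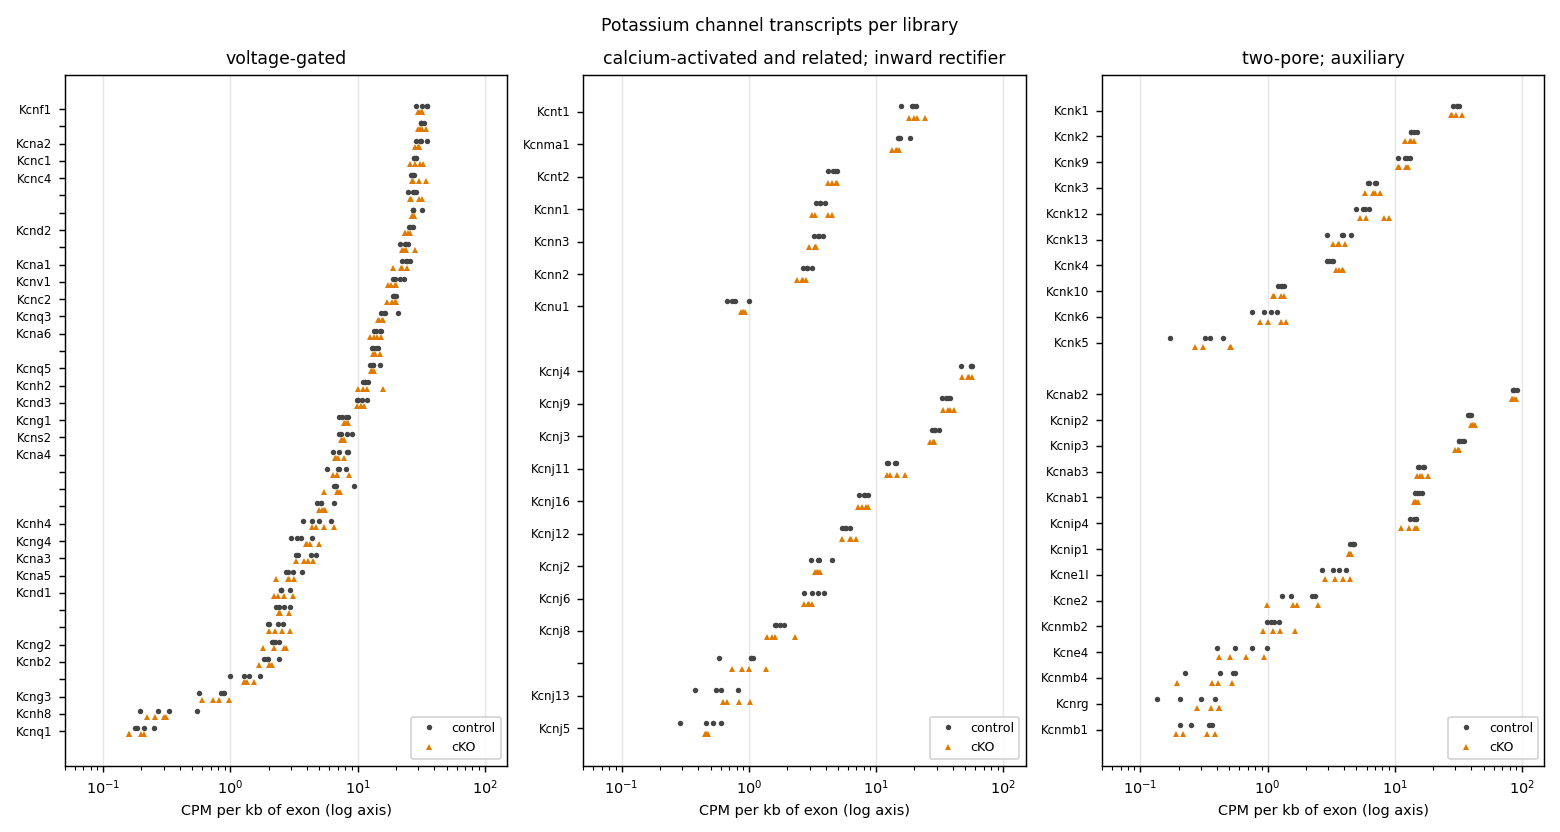
Level of each of the 80 genes in every library, as CPM per kb of exon on a log axis, with control libraries as circles and cKO libraries as triangles, ordered by level within each family, with the symbol beside the genes named in the text. The levels span from 0.193 (Kcnq1) to 86.5 (Kcnab2) CPM per kb, and the symbols of both groups lie over each other in nearly every row.

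Among the 37 voltage-gated pore genes, log2 fold changes were negative for 24 and positive for 13 (median -0.03); 0 passed and in 0 did the groups separate. Without control replicate 1 the count of negative values was 14 (median 0.02), and with GC-content offsets 32. Their summed level was 3626 ± 187 in control and 3541 ± 82.6 CPM in cKO libraries (SD, n = 4). Single libraries lay between 3493 and 3898 CPM in control and between 3436 and 3609 CPM in cKO brain, with the highest value in control replicate 1.

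Kcnq3 encodes a Kv7 subunit of the M-current, which brakes repetitive firing. Kcnq3 stood at 306, 240.2, 236 and 226 CPM in control replicates 1 to 4 and 213, 233, 216 and 229 CPM in cKO replicates 1 to 4. Control replicate 1 lay far above every other library. Of the remaining controls, replicate 4 (226 CPM) lay inside the cKO range, and those at 240.2 and 236 CPM lay above it. Its log2 fold change was -0.18 (95% interval -0.34 to -0.01, SE 0.08); its edgeR p was 0.0349 before and 0.889 after adjustment. Without control replicate 1 the value was -0.07, and -0.05 without cKO replicate 1 as well. Kcnq5, a further Kv7 gene of the forebrain, had -0.05 (SE 0.06).

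The 6 Kv1 genes all had negative log2 fold changes, with a median of -0.10. Products of some of them cluster beside the nodes of Ranvier and at axon initial segments. None of the 6 genes passed, and without control replicate 1 and cKO replicate 1 their median was -0.02, with 5 negative. Kcna2, the most abundant of them, stood at 415, 368, 373 and 345 CPM in control and 334, 360.1, 355 and 364 CPM in cKO libraries. Control replicate 1 was again the highest, and the groups overlapped; the log2 fold change was -0.09 (95% interval -0.21 to 0.04, SE 0.06), and -0.04 without that library. Kcna1, which underlies episodic ataxia in humans, had -0.13 (95% interval -0.29 to 0.02, SE 0.07). The remaining 4 were Kcna4 at -0.10, Kcna6 at -0.06, Kcna5 at -0.15 and Kcna3 at -0.02.

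Kcnb2, the gene of a Kv2 delayed rectifier, had -0.05 (SE 0.09). Of the silent subunits that modify Kv2 channels, Kcnf1 had -0.07 (SE 0.07), Kcnv1 -0.14 (95% interval -0.29 to 0.0047, SE 0.07) and Kcns2 -0.06 (SE 0.08); without both libraries these were -0.03, -0.05 and -0.0024. Kcng4, another silent Kv6 subunit, stood at 13.7, 11.4, 16.8 and 12.8 CPM in control and 18.8, 14.9, 16.2 and 15.2 CPM in cKO libraries. Control replicate 3 lay among the cKO libraries, and the log2 fold change was 0.24 (95% interval 0.0022 to 0.48, SE 0.12); its edgeR p was 0.0481 before and 0.889 after adjustment. Without cKO replicate 1 it was 0.17. The other Kv6 genes, Kcng1, Kcng2 and Kcng3, had 0.05, 0.06 and -0.03.

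Kv3 channels permit fast spiking. Kcnc4 had 0.12 (SE 0.07), Kcnc1 0.05 (SE 0.06) and Kcnc2 -0.05 (SE 0.06). When control 1 and cKO 1 were omitted these values were 0.04, 0.0092 and -0.0025, and with GC-content offsets 0.04, -0.01 and -0.03. Of the Kv4 genes of the A-type current, Kcnd2, which encodes a dendritic PKA substrate, had -0.09 (95% interval -0.21 to 0.02, SE 0.06), and Kcnd3 and Kcnd1 had -0.0026 and -0.02. The 8 ether-à-go-go (Kcnh) genes ranged from -0.32 for Kcnh8 to 0.11 for Kcnh4. Kcnh8 was the member with the most negative value among those at 1 CPM or more, at 1.22, 0.892, 2.50 and 1.51 CPM in control and 1.16, 1.36, 1.01 and 1.41 CPM in cKO libraries. Control replicate 3 was its highest library, and without that library the value was 0.01; the interval ran from -0.96 to 0.31. Kcnh2, the ERG channel gene, had 0.08 (SE 0.10), or -0.06 without both libraries.

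Among the 7 calcium-activated and related genes 3 were negative and 4 positive, with a median of 0.0065 and 0 past the test. Kcnma1 encodes the pore of the BK channel, which is opened jointly by calcium and voltage and is a PKA substrate. It stood at 312, 258, 254 and 259.9 CPM in control replicates 1 to 4 and 226, 242, 249 and 255 CPM in cKO replicates 1 to 4. Control replicate 1 was the highest and cKO replicate 1 the lowest library, and cKO replicate 4 lay above control replicate 3. The log2 fold change was -0.16 (95% interval -0.30 to -0.02, SE 0.07); its edgeR p was 0.0286 before and 0.889 after adjustment. It was -0.08 without control replicate 1 and -0.05 without both. Kcnt1, the sodium-activated Slack channel gene, ran the opposite way between the same libraries, at 148, 180.3, 184 and 195 CPM in control and 231, 172, 199 and 189 CPM in cKO libraries. Its lowest value was control replicate 1 and its highest cKO replicate 1; the log2 fold change of 0.16 (95% interval -0.03 to 0.35, SE 0.09) was -0.0024 without both. Its relative Kcnt2 had 0.0065 (SE 0.08).

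Small-conductance (SK) channels give the afterhyperpolarisation that follows a spike. Kcnn3 stood at 39.6, 36.2, 37.4 and 33.7 CPM in control and 31.2, 34.5, 34.6 and 34.95 CPM in cKO libraries. Replicate 1 of the cKO group was the lowest, and the log2 fold change was -0.12 (95% interval -0.27 to 0.04, SE 0.08), or -0.05 without both libraries that stand apart. Kcnn2 had -0.13 (95% interval -0.32 to 0.05, SE 0.09), and -0.14 without them, and Kcnn1 had 0.05 (SE 0.11). Kcnu1, a Slo channel known from sperm, was counted at 2.99 and 3.37 CPM, with 0.18 (SE 0.18).

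**Figure D3:**
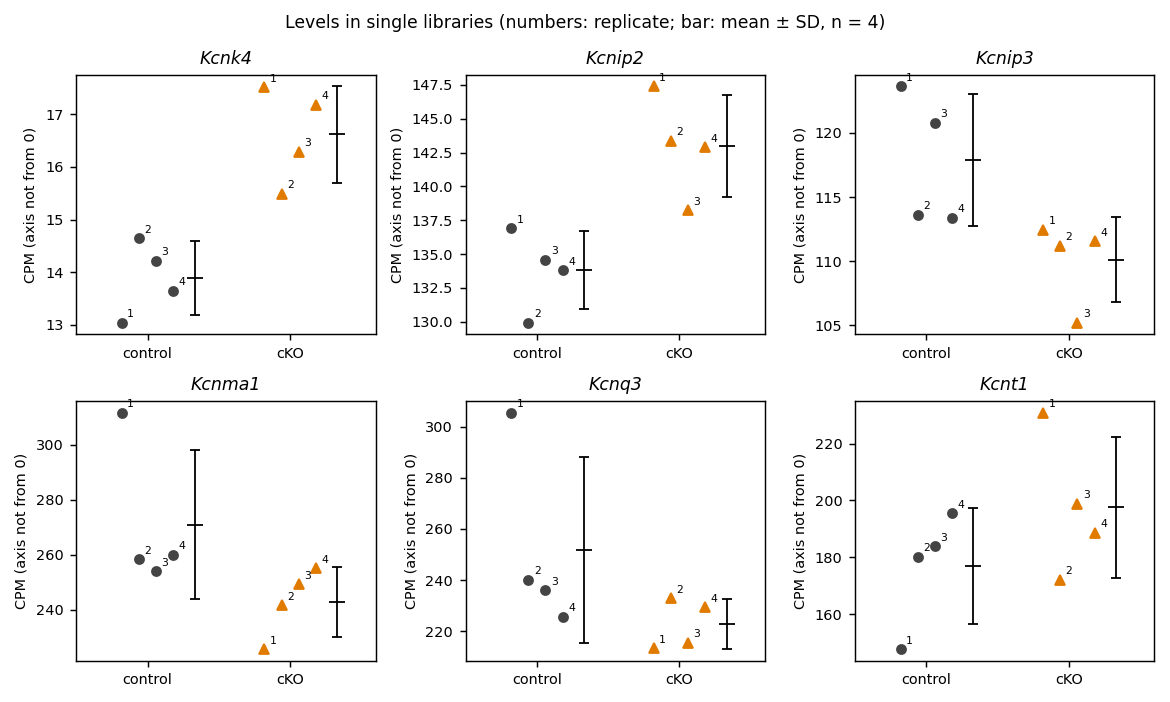
CPM of Kcnk4, Kcnip2, Kcnip3, Kcnma1, Kcnq3 and Kcnt1 in each library (circles control, triangles cKO, with the replicate number beside each point, and the group mean ± SD, n = 4); the y axes do not start at 0. The groups separate for Kcnk4, Kcnip2 and Kcnip3, whereas replicate 1 of one or both groups is the extreme point for Kcnma1, Kcnq3 and Kcnt1.

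Inward rectifiers gave 7 negative and 5 positive values among 12 genes, with a median of -0.0098 and 0 with an unadjusted edgeR p under 0.05. Kcnj3, Kcnj6 and Kcnj9 encode the neuronal GIRK channels, which G-protein-coupled receptors open through Gi/o beta-gamma subunits. Kcnj9 stood at 157, 163, 142 and 152 CPM in control and 165, 176, 144 and 158 CPM in cKO libraries. Kcnj3 stood at 161, 149.7, 143 and 150.2 CPM in control and 138, 149.6, 149 and 147 CPM in cKO libraries. The groups overlapped for both, with log2 fold changes of 0.07 (95% interval -0.07 to 0.20, SE 0.07) and -0.05 (95% interval -0.17 to 0.07, SE 0.06). Kcnj6 stood at 29.7, 26.6, 20.5 and 23.9 CPM in control and 22.6, 22.2, 20.7 and 23.8 CPM in cKO libraries. Its cKO values lay inside the control range, and its log2 fold change of -0.17 (95% interval -0.38 to 0.04, SE 0.10) was -0.09 without both libraries that stand apart and -0.26 without control replicate 3, where its unadjusted edgeR p was under 0.05. The remaining GIRK gene, Kcnj5, was rare, at 2.20 and 2.16 CPM.

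Of the strong inward rectifiers, Kcnj4 (Kir2.3) stood at 119, 119, 99.5 and 122 CPM in control and 113, 121, 115 and 101 CPM in cKO libraries, with -0.03 (95% interval -0.18 to 0.12, SE 0.07). Kcnj2 and Kcnj12 had -0.07 and 0.11. For the pores of ATP-sensitive channels, Kcnj11, the neuronal one, had 0.09 (SE 0.09), or -0.04 without both libraries, and Kcnj8, the one of pericytes, -0.04 (SE 0.17). Kcnj16, a partner of glial channels, had -0.0092 (SE 0.08). Kcnj13, a channel of the choroid plexus, had the largest estimate of the family and one of the least certain: 1.04, 0.764, 0.479 and 0.703 CPM in control and 0.796, 1.06, 0.854 and 1.30 CPM in cKO libraries, with 0.45 (95% interval -0.24 to 1.13, SE 0.33) and 0.72 without both libraries that stand apart. The 6 choroid plexus markers (Ttr and others) all had negative values, with a median of -0.24 (-0.07 without both) and a summed level of 474 to 659 CPM in control and 401 to 649 CPM in cKO libraries, none of the 6 being at 0; their part in the Kcnj13 value was not tested. The exons of Kcnj13 also overlap Gigyf2 on the opposite strand, which held 11016 reads against 125 for Kcnj13.

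The 10 two-pore channel genes were split evenly, 5 negative and 5 positive, with a median of 0.0097; 0 passed. Kcnk4 encodes TRAAK, a mechanically gated channel of the nodes of Ranvier, and was the member with the lowest p-value of all 80. It stood at 13.04, 14.6, 14.2 and 13.7 CPM in control replicates 1 to 4 and 17.5, 15.5, 16.3 and 17.2 CPM in cKO replicates 1 to 4. Every cKO library lay above every control library. The log2 fold change was 0.26 (95% interval 0.07 to 0.44, SE 0.09); its edgeR p was 0.0103 before and 0.889 after adjustment. It ranged from 0.23 to 0.29 over the 8 fits that leave out 1 library, each with an unadjusted edgeR p under 0.05, and was 0.20 (unadjusted edgeR p 0.0548) without both libraries that stand apart. Exons of Kcnk4 overlap those of Catsperz on the same strand, which held 193 reads against 2171 and had a log2 fold change of 0.20 (SE 0.30); reads in the shared part cannot be assigned by these counts.

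Kcnk12 encodes THIK-2, a halothane-inhibited type of two-pore channel. It stood at 12.4, 11.5, 9.85 and 11.04 CPM in control and 17.8, 16.2, 11.8 and 10.5 CPM in cKO libraries. Replicates 1 and 2 of the cKO group were high while replicates 3 and 4 lay among the controls. The log2 fold change was 0.33 (95% interval 0.02 to 0.63, SE 0.14); its edgeR p was 0.0357 before and 0.889 after adjustment. Omitting cKO 1 gave 0.20, and GC-content offsets gave 0.15; at 69.4% GC it was the most GC-rich member. Its relative Kcnk13, the THIK-1 channel of microglia, had -0.06 (SE 0.12). The largest positive estimates of the family also included Kcnk5, at 1.11 and 1.37 CPM, with 0.31 (95% interval -0.37 to 0.98, SE 0.32). That value was 0.09 without control replicate 3 and 0.49 without control replicate 2.

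The abundant leak channels showed no difference past the test. Kcnk1 (TWIK-1) stood at 70.98, 68.7, 68.5 and 64.4 CPM in control and 62.4, 76.03, 62.8 and 67.5 CPM in cKO libraries. Kcnk2 (TREK-1), a PKA-inhibited channel, stood at 74.04, 66.4, 66.3 and 69.8 CPM in control and 59.6, 70.4, 65.7 and 66.1 CPM in cKO libraries. Kcnk9 (TASK-3) stood at 130.3, 154, 161 and 149 CPM in control and 134, 129.6, 149.7 and 156 CPM in cKO libraries. The groups overlapped for each of these 3, with log2 fold changes of -0.02 (SE 0.07), -0.08 (SE 0.07) and -0.06 (SE 0.07). Kcnk3 (TASK-1), Kcnk10 (TREK-2) and Kcnk6 (TWIK-2) had 0.04, -0.07 and 0.21.

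Of the 14 auxiliary genes 9 were negative and 5 positive, with a median of -0.05; 0 passed and 0 had an unadjusted edgeR p under 0.05. The Kv beta subunits bind Kv1 tetramers. Kcnab2 stood at 508, 474, 482 and 473 CPM in control and 482, 505, 469 and 468 CPM in cKO libraries. Its groups overlapped, and its log2 fold change of -0.0093 (95% interval -0.12 to 0.10, SE 0.05) had one of the narrowest intervals of the set. Kcnab1 stood at 139.9, 132, 129 and 125 CPM in control and 121, 132, 124 and 127 CPM in cKO libraries, with -0.06 (95% interval -0.18 to 0.06, SE 0.06). Kcnab3 had 0.01 (SE 0.07).

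KChIPs are calcium-binding proteins that assemble with Kv4 pores, and Kcnip3 also encodes the transcriptional repressor DREAM. For 2 of the 4 KChIP genes the groups of libraries did not overlap, in opposite directions, against 3.75% of the 80 members and 2.96% of all genes. These genes were singled out after their values were seen. Kcnip2 stood at 137, 129.9, 135 and 134 CPM in control replicates 1 to 4 and 147, 143, 138 and 143 CPM in cKO replicates 1 to 4. All cKO values were above all control values, by a log2 fold change of 0.10 (95% interval -0.02 to 0.21, SE 0.05); its edgeR p was 0.0909 before and 0.889 after adjustment. Kcnip3 stood at 124, 114, 121 and 113 CPM in control replicates 1 to 4 and 112, 111, 105 and 112 CPM in cKO replicates 1 to 4. All cKO values were below all control values, by a log2 fold change of -0.10 (95% interval -0.22 to 0.02, SE 0.06); its edgeR p was 0.0989 before and 0.889 after adjustment. Without both libraries that stand apart the values were 0.09 for Kcnip2 and -0.09 for Kcnip3. With GC-content offsets they were 0.05 for Kcnip2 and -0.14 for Kcnip3, whose unadjusted edgeR p was then under 0.05. Kcnip4 and Kcnip1 had -0.08 and -0.07.

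The BK beta, KCNE and Kcnrg transcripts were rare, and their intervals wide. Kcnmb4, a beta subunit of neuronal BK channels, stood at 1.78, 1.85, 0.745 and 1.41 CPM in control and 0.651, 1.36, 1.21 and 1.74 CPM in cKO libraries, with -0.18 (95% interval -0.85 to 0.50, SE 0.32). Its exons overlap the antisense gene Kcnmb4os2, which held 383 reads against 192. Kcnmb2 and Kcnmb1 had 0.17 and -0.04. Kcne2, which is also strong in choroid plexus, had -0.13 (SE 0.25), Kcne4 -0.08 (SE 0.30) and Kcne1l 0.08 (SE 0.17). Kcnrg, at 0.468 and 0.669 CPM, had 0.53 (95% interval -0.27 to 1.34, SE 0.39).

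Single libraries differed in the level of the whole set. The median log2 deviation of the 80 genes from their own mean over the 8 libraries was 0.07, 0.01, -0.02 and -0.03 in control replicates 1 to 4. In cKO replicates 1 to 4 it was -0.03, 0.01, -0.04 and -0.0049. Control replicate 1 was the highest library and the groups otherwise overlapped, while the same median over all genes tested stayed between -0.0036 and 0.0055. In control replicate 1 the voltage-gated genes stood at 0.09 and the two-pore genes at -0.03. In cKO replicate 1 the calcium-activated group stood at -0.13, and two-pore genes ranged from 0.11 in cKO replicate 2 to -0.08 in cKO replicate 4.

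**Figure D4:**
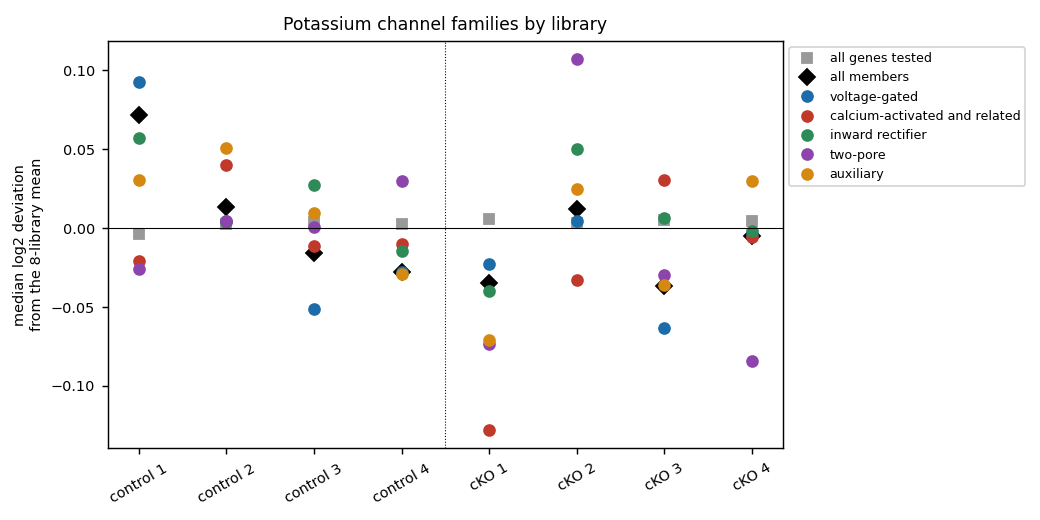
Median log2 deviation from the 8-library mean (y axis) in each library (x axis, control left and cKO right of the dotted line) for all genes tested (squares), all 80 members (diamonds) and each family (circles). The members reach 0.07 in control replicate 1, and the families differ as much between libraries of 1 group as between groups.

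Members rich in GC tended to have higher log2 fold changes than members poor in GC. Over the 57 members with a mean CPM of at least 10, Spearman's rho with the GC content of the longest transcript was 0.685, against 0.494 over the 10331 genes at that level with a known GC content; genes share the libraries and are not independent replicates. Of 24 members under 50% GC, 23 had a negative value (median -0.07), and of 33 at 50% or more, 13 did (median 0.04). Whatever their GC content, 49.6% of all genes at that CPM level were negative. That share is not split by GC, and values over all genes also rose with GC, so it is no background for either set. Kcnma1, Kcnq3, Kcna2 and Kcnn3 belong to the first set, and Kcnk4, Kcnk12, Kcng4 and Kcnt1 to the second. Without both libraries that stand apart rho was 0.0423, and 14 of 24 and 18 of 33 were negative. Omitting cKO 1 alone gave 0.412, and GC-content offsets 0.254. The correlation with transcript length was -0.348, or -0.122 without both.

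**Figure D5:**
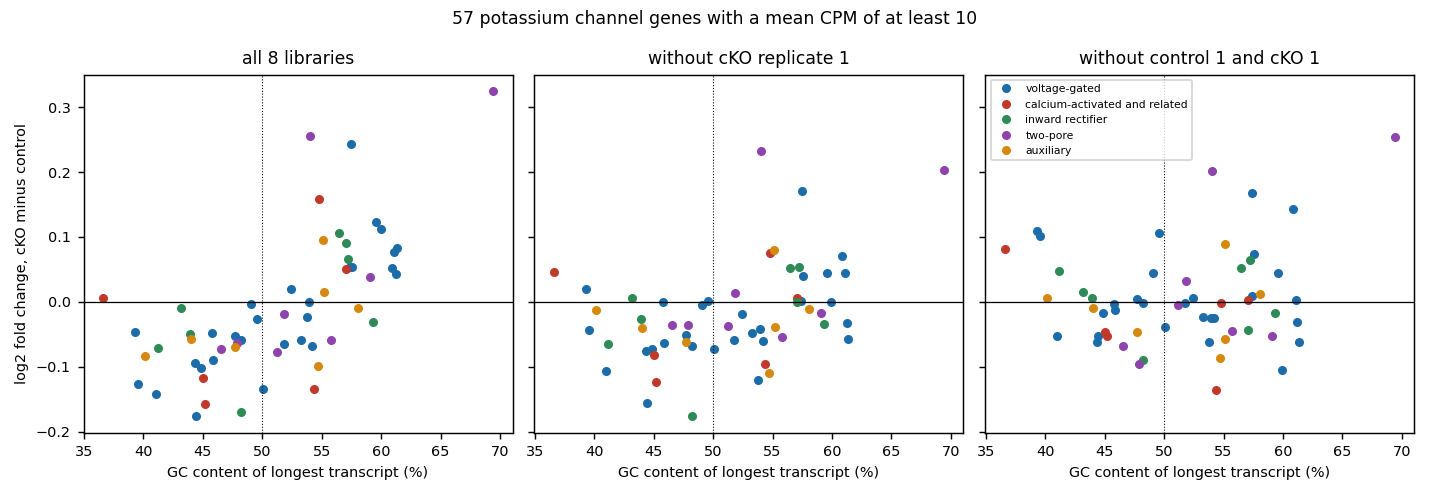
Log2 fold change (y axis, cKO minus control) against GC content of the longest transcript (x axis, percent) for the 57 members with a mean CPM of at least 10, coloured by family, in all 8 libraries, without cKO replicate 1, and without control replicate 1 and cKO replicate 1. The upward slope in the left panel (rho 0.685) is nearly flat in the right panel (rho 0.0423); the dotted line marks 50%.

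Some cell type marker lists deviated in the libraries that stand apart, and others did not. Of 6 excitatory neuron markers, 5 had a negative log2 fold change and none was at 0, with a summed level of 4185 to 4859 CPM in control and 4183 to 4675 CPM in cKO libraries. Their median deviation was 0.16 in control replicate 1 and -0.13 in cKO replicate 1, and their median log2 fold change of -0.06 was -0.0039 without both. All 5 thalamic markers were negative, with sums of 299.9 to 339 CPM in control and 280.3 to 289.8 CPM in cKO libraries, and the median of -0.14 was -0.12 without both. Medians of the other lists were 0.0062 for inhibitory neurons, 0.02 for astrocytes, -0.02 for oligodendrocytes, 0.07 for microglia and -0.10 for endothelium. For oligodendrocyte precursors, mural cells, striatum and cerebellum they were -0.07, -0.08, -0.04 and -0.09. Hypothalamus had 0.01, dentate gyrus and hippocampus had -0.01, and the choroid plexus list is given above. Single markers went either way within a list: the astrocyte genes Gfap and Slc1a2 had 0.33 and -0.20, and the microglial gene P2ry12 -0.26, with unadjusted edgeR p of 0.0126, 0.0168 and 0.00424. The lowest unadjusted edgeR p of a marker was that of thalamic Rora (0.00248), at -0.24, or -0.20 without cKO replicate 1. Thalamic Prkcd, excitatory Sv2b and endothelial Flt1 had -0.16, -0.14 and -0.17, with unadjusted edgeR p of 0.0327, 0.0311 and 0.0294. The groups did not overlap for Gfap and P2ry12, and they overlapped for every other marker tested. Over all genes tested 2.96% did not overlap. Of the 6 microglial markers P2ry12 alone was negative and 5 were positive. No other marker reached an unadjusted edgeR p under 0.05, which 4.78% of all genes tested did. The single markers named here were chosen after their values were seen. No marker gene passed the adjusted edgeR test, and the part of these cell types in the channel values was not tested.

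Genes of channel partners that do not carry a Kcn symbol gave no call either: 0 of the 47 tested passed the adjusted edgeR test, and 7 (14.9%) had an unadjusted p under 0.05, against 4.78% of all genes. Counts of negative values among them are set against 48.8% of all genes. Anchors and extracellular partners of Kv channels (10 of 16 negative, median -0.07, or -0.02 without both libraries that stand apart) included Ank2, at -0.18 (SE 0.07), and Ank3, the ankyrin that holds Kv7 channels at the axon initial segment, at -0.14 (SE 0.07). Among regulators of the M-current and of SK channels (8 of 11 negative, median -0.08, or -0.03 without both libraries that stand apart), Akap5, the anchoring protein that brings kinases to Kv7 channels, had -0.18 (SE 0.08), Akap9 -0.19 (SE 0.08) and Csnk2b 0.15 (SE 0.07). Control replicate 1 was the highest of all libraries for Ank2, Ank3, Akap5 and Akap9, and cKO replicate 1 the lowest for Akap5 and Akap9. Without cKO replicate 1 the values were -0.18 for Ank2, -0.13 for Ank3, -0.12 for Akap5, -0.13 for Akap9 and 0.10 for Csnk2b. For Ank2 control replicate 1 stood at 935 CPM, against 755, 780 and 697 CPM in the other controls. Its cKO libraries held 670 to 722 CPM. For Ank3 the control values were 563 CPM against 478, 507 and 433 CPM, with 433 to 463 CPM in cKO libraries. Fits of these single genes without control replicate 1, and the share of 14.9% without it, are not given here. Regulators of GIRK channels (8 of 11 negative, median -0.04, or -0.003 without both libraries that stand apart) included Rgs7bp, at -0.14 (SE 0.07), or -0.08 without cKO replicate 1. Of the HCN genes, whose cation channels bind cAMP directly, Hcn3 had 0.22 (SE 0.10) and Hcn2 0.16 (SE 0.11); without cKO replicate 1 these were 0.13 and 0.04. For the sulfonylurea receptor Abcc8, partner of Kcnj11, the value was 0.12 (SE 0.09), or 0.04 without cKO replicate 1.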

How the data were processed

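Brain RNA of 4 control and 4 Akap11 cKO libraries, grouped by their titles, was compared. The authors deposited raw read counts for each Ensembl gene, 1 file per library, and the submitters' processing notes name HISAT2 and GRCm39; the sources used here name no counting program, strand setting or annotation. The 5 entries per file that name no gene (20.3% to 36.2% of listed reads, the most in cKO replicate 1) were left out. Exons of 26 of the 80 members overlap another gene. Reads in the shared parts may have been set aside as ambiguous or given to 1 of the genes. Without a known strand setting these cases cannot be told apart. Of listed reads, 10.1% in cKO replicate 1 and 5.14% to 6.16% in the others were counted as ambiguous.

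Symbols were matched for 51880 of 57186 genes; biotype, exon length, GC content and overlaps came from GENCODE M21 (GRCm38), not the authors' build, and no coordinates were mixed. Genes were filtered with filterByExpr and scaled by TMM; CPM are counts scaled to those library sizes. The cKO and control groups were tested in edgeR 4.0.16 (quasi-likelihood F test, robust, group only) in R 4.3.3, adjusted by Benjamini-Hochberg over 16766 genes at a threshold of 0.05. All 80 members passed the filter. Alternatives used DESeq2 1.42.0, limma 3.58.1 (voom), sva 3.50.0, other scalings and filters, the replicate number as a block, GC-content offsets (loess, span 0.5) and left-out libraries.

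The members, lists and tests were chosen with earlier results of these data known. Genes given per library were, per family, the 3 with the highest CPM and the 2 with the lowest p, any past the threshold or with separated groups, and the 3 largest changes in each direction at 1 CPM or more; other members are named by family, chosen after their values were seen. Some genes that this rule would name are not reported here.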

Additional observations from a re-analysis of the deposited data

Results flagged for a closer look

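Among the 60 groups of 4 libraries examined for single values far from the rest, 3 were set apart by Dixon's criterion (a gap to the nearest library too large for the range), where chance marks about 1 in 20. Control replicate 1 was far above the other controls for Kcnma1, at 312 CPM against 254 to 259.9 CPM in the other 3. For Kcnn3, cKO replicate 1 was the low library of its group, at 31.2 CPM against 34.5 to 34.95 CPM in the other 3. Kcnj4 had its low value in control replicate 3, at 99.5 CPM against 119 to 122 CPM in the other 3.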

How the results depend on the processing

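No member passed the adjusted test in any of the 18 alternatives run. Members with an unadjusted p under 0.05 numbered 5, and 8 with no low-count filter, 3 by limma voom, 3 with GC-content offsets, 1 with 1 surrogate variable (Kcnk4) and 0 without control replicate 1 and cKO replicate 1 together. Leaving out 1 library gave 1 of them at the fewest, when cKO replicate 1 was omitted, and 7 at the most, when cKO replicate 4 was. Over all genes the 4 calls became 7 with no low-count filter, 2 by limma voom, 2 with the replicate block, 1 with 1 surrogate variable, 2 without both libraries that stand apart, and 0 to 3 with 1 library left out. The cause was not tested. Akap11 stood at -0.47 with 1 surrogate variable and at -0.55 to -0.42 with 1 library left out. The median of the members ranged from -0.047 to 0.0067 over all settings, including one added after seeing the data that keeps the 54 members without exon overlap (-0.022). Signs of some members turned: with library totals Kcnab2 (0.00038); with 1 surrogate variable Kcnk1 (0.010) and Kcnmb4 (0.061); and without both libraries that stand apart Kcnt1 (-0.0024), Kcnj3 (0.0053), Kcnk1 (0.032), Kcnab2 (0.012) and Kcnmb4 (0.12). With 1 library left out the range was -0.033 to 0.013 for Kcnab2, -0.085 to 0.013 for Kcnk1, -0.10 to 0.014 for Kcnj4, -0.50 to 0.015 for Kcnh8 and -0.40 to 0.0041 for Kcnmb4. The replicate numbers share no stated litter or batch. Deviations of libraries with the same number correlated by 0.0052 to 0.049, and those with different numbers by -0.090 to 0.105. These values cannot show whether the block carries a pairing. Precision is limited by reads for members such as Kcnrg, Kcnq1 and Kcnj13.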
